A study of Mus musculus with 6 samples.

Results

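The collagens are the triple-helical proteins of the extracellular matrix, and the discoidin domain receptors Ddr1 and Ddr2 are receptor tyrosine kinases that bind them. Every row of the deposited table whose symbol was Col, digits, a, digits was taken, together with Ddr1 and Ddr2, which gave 46 genes (44 collagens and 2 receptors) of 53110 rows. The set was selected on how these genes differed between the genotypes in the same samples, so the counts and ratios below are a description of that difference and carry no test. RNA-seq had been performed on primary neural stem cells (NSCs) from the cortex of mid-gestation mouse embryos, either wild type (WT) or Setd5+/-, a loss of 1 copy of the chromatin gene Setd5 made with CRISPR-Cas9. All cells grew at 21% oxygen, attached to Matrigel, a commercial basement membrane extract that itself holds type IV collagen and laminin protein, in medium with EGF and bFGF. The mutant columns carry the name of a single clone, A3, which is not among the clone names in the study's text. Strain, sex and passage are not given in the sources used here.

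The labels list 3 samples of each genotype, but these differed from each other by no more than random sampling of reads (chi-square per degree of freedom 0.958 to 0.981 over the 6 pairs of samples within a genotype, against 31.7 to 31.9 over the 9 pairs between genotypes), and each set of 3 carries the same index and lane. They were therefore counted as 1 library per genotype, with 30004634 reads in WT and 21435546 in Setd5+/-. With 1 library there is no replicate check, and whether the samples of the genotypes overlap reflects the counting of reads only. Whether a difference comes with the genotype, with the clone or with the index and lane of its library cannot be told apart. Levels are normalized counts, that is reads on a gene divided by the size factor of the sample, averaged over the 3 samples, and a value given below without a unit is such a level. Each ratio is Setd5+/- over WT and has an exact 95% counting interval (Clopper-Pearson, on read pairs), which covers counting error only. Setd5 itself stood at 2498, 2749 and 2780.1 in WT and at 2151, 1990 and 2055 in Setd5+/-, 77.2% of the WT level.

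Collagen chains assemble in threes. Fibrillar collagens build the fibres of connective tissue, type IV collagens form the sheet-like network of basement membranes, type VI collagens form beaded filaments next to them, and FACIT collagens sit on the surface of fibres. In the embryonic cortex the main basement membranes lie at the pial surface, where radial glia, the neural stem cells of this tissue, attach their end feet, and around blood vessels. Ddr1 is found mostly in epithelial and glial cells and responds to several collagens, while Ddr2 is best known from mesenchymal cells and responds to fibrillar collagens.

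Of the 46 genes, 4 had no read in either library (Col10a1, Col8a1, Col6a5 and Col6a6), 16 had reads but a mean under 10 normalized counts over the 6 samples, and 26 reached that minimum. Among the 26, 13 were at least 2-fold higher in Setd5+/- NSCs, 2 were at least 2-fold lower and 11 were neither. Over all 16266 genes with the same minimum, 10.6% were at least 2-fold higher and 6.34% at least 2-fold lower. Since the genes were picked with this contrast known, nothing is read from the distance between these shares. The median log2 ratio was 1.12 for the 26 genes and -0.02 for all genes. The 44 collagens together summed to 2173, 2168 and 2257 in WT and to 5630.2, 5411 and 5427 in Setd5+/-, a ratio of 2.50. The 3 totals of each genotype lay close together and far from those of the other.

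**Figure D1:**
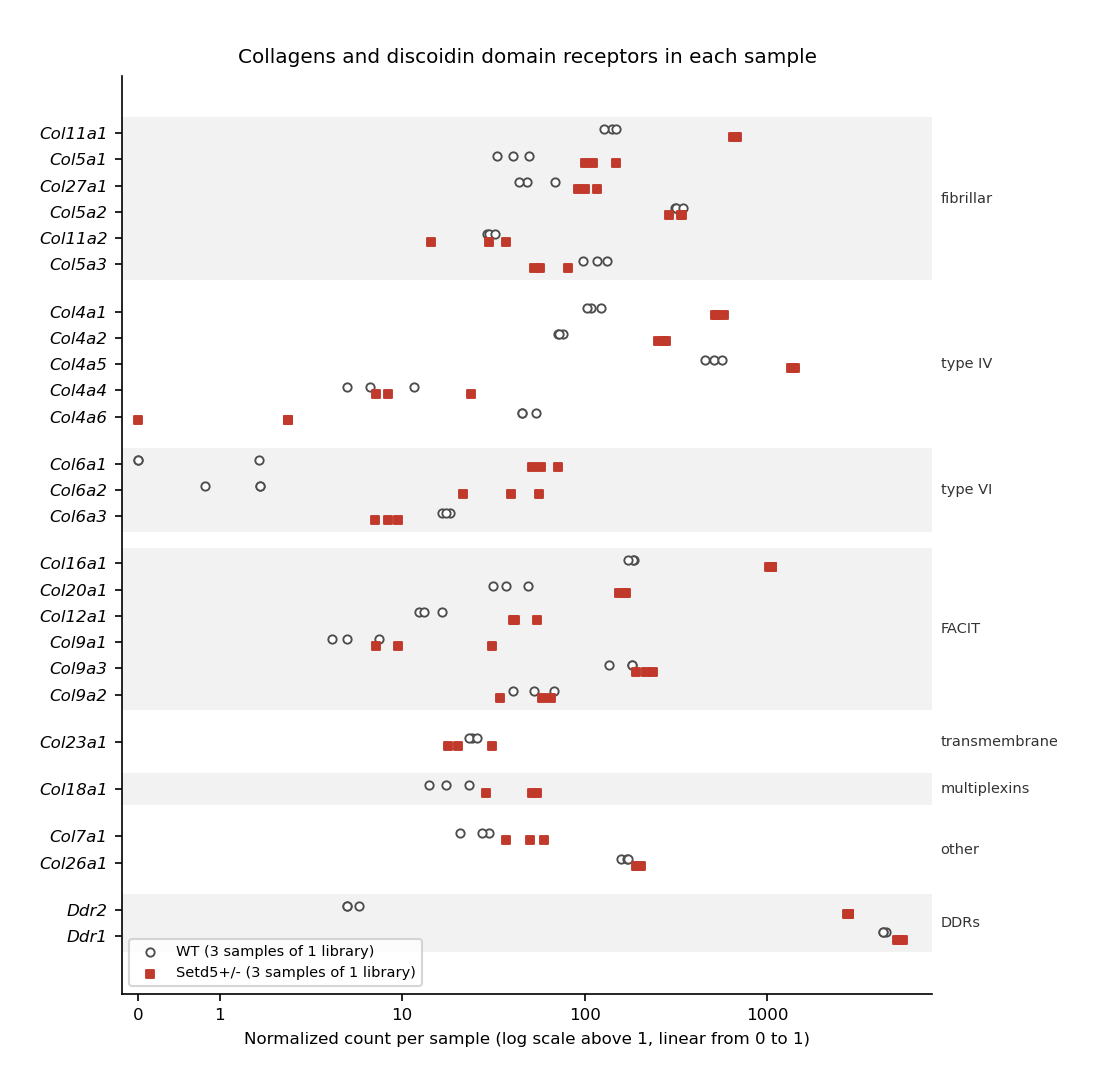
Normalized counts (horizontal axis, log scale above 1 and linear from 0 to 1) of the 26 genes that reached a mean of 10, grouped by class, in the 3 WT samples (open circles) and the 3 Setd5+/- samples (red squares). Ddr2 lies near 5 in every WT sample and at 2725 or more in every Setd5+/- sample, Col4a6 lies the other way round, and Ddr1 and Col5a2 stay close together.

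Of the 26 genes, the receptor gene Ddr2 had the highest ratio. Normalized counts of Ddr2 were 5.80, 4.96 and 4.97 in WT against 2725, 2802 and 2789 in Setd5+/-. It was barely above 0 in every WT sample and among the well expressed genes in every Setd5+/- sample. The ratio was 528-fold (interval 283 to 1128), or 9.05 on the log2 scale, and rested on 9.5 read pairs in WT (a read counted without its mate is 0.5 of a pair) and 3490 in Setd5+/-. Only 1 of the 16266 genes had a higher log2 ratio, with genes that lacked reads in a library set against 3 read pairs there. Ddr1, in contrast, was high in both libraries, at 4465, 4290.4 and 4287 in WT and 5544, 5141 and 5331 in Setd5+/-. Its ratio of 1.23 (interval 1.19 to 1.27) was above 1 but far from 2-fold. Per kilobase of exon, which allows levels of different genes to be compared, the normalized counts of Ddr1 were 911 and 1118 in the WT and Setd5+/- libraries and those of Ddr2 0.566 and 299, so that Ddr1 was the higher receptor in both libraries. The nearest protein-coding genes that reached the minimum did not share the Ddr2 difference. Hsd17b7, 3.07 kb away, had 478 in WT and 479 in Setd5+/-, and Uap1, 31.2 kb away, had 201 and 177. An antisense gene, 3110045C21Rik, shares 90 bases of exon with Ddr2 and was higher too, with a log2 ratio of 2.30. It had 3.87 and 19.1 normalized counts, far below the Ddr2 level in Setd5+/-.

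Type IV collagens, the network formers of basement membranes, had the highest summed level of the collagen classes in both libraries, in WT only narrowly. The fibrillar collagens summed to 716 in WT and were above type IV in WT sample 2 (727 against 683). The 6 type IV genes lie as 3 head-to-head pairs, in which the members of a pair start close together and run apart on opposite strands. Of the 5 type IV genes whose mean reached 10, 3 were at least 2-fold higher, 1 was lower and 1 was neither. Type IV as a whole summed to 755 in WT and 2202 in Setd5+/-, a ratio of 2.92.

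Sequences from between the starts are shown for the pairs that behaved differently. For Col4a5 and Col4a6 these are only the stretches ahead of each start, and the middle of the interval is not shown. They are from RefSeq on the GRCm38.p6 build and are printed 5′ to 3′ on the strand named. Capitals mark matches to either strand of CCAAT (the CCAAT box), to GGGCGG (the GC box of the Sp1 family), to TATAAA (the TATA box) and to TGANTCA (the AP-1 motif), none of which contains another. Col4a1 and Col4a2 start within 21 bases of each other, and their first exons overlap in the 22 bases of chr8:11312805-11312826 (plus strand). Col4a5 and Col4a6 start 1309 bases apart in GENCODE M21, and the bases ahead of each start are given for Col4a5 (chrX:141475169-141475384, plus strand, up to the first base of the GENCODE gene) and for Col4a6 (chrX:141474077-141474326, minus strand).
Col4a1 and Col4a2: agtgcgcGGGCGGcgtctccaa
Col4a5: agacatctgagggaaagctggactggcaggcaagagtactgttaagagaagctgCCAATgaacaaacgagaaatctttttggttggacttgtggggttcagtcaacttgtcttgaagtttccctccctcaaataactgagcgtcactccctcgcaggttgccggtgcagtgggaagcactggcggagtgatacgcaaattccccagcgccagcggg
Col4a6: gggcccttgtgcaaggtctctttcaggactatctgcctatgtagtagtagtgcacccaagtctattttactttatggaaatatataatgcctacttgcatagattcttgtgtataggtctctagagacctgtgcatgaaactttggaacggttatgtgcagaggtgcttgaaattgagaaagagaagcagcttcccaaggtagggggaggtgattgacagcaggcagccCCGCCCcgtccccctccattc

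The short segment shared by Col4a1 and Col4a2 holds 1 GGGCGG match. The Col4a5 stretch holds 1 CCAAT match and 8 CpG dinucleotides, and the Col4a6 stretch holds 1 GGGCGG match, read on the other strand, and 3 CpG. A match describes the letters only. The table of start windows, each reaching from 250 bases before a gene's start to 50 after it, held 37 of the 46 genes, with 43 windows. CCAAT was in windows of 14 of these 37 genes and in 37.4% of all 32851 windows, and GGGCGG in windows of 23 genes and in 35.7% of all. The full windows of Col4a1, Col4a2 and Col4a5 held both CCAAT and GGGCGG, and that of Col4a6 held GGGCGG but not CCAAT. The shorter stretches printed above thus show only part of these matches. TATAAA was in windows of 6 genes and in 13.6% of all, and TGANTCA in windows of 2 genes and in 7.81% of all. A gene with several windows has more chances of a match, so the counts of genes and the shares of windows are not on the same footing. The median GC content was 59.7% in the windows of the collagens and receptors and 52.7% in all windows. The Ddr2 window lies 21.8 kb inside the GENCODE gene and is not shown.

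Col4a1 and Col4a2, the chains of the basement membrane collagen found in nearly all tissues, were both higher. The level of Col4a1 was 109, 103 and 123 in WT and 576, 514 and 529 in Setd5+/-, a ratio of 4.85 (interval 4.14 to 5.70). Col4a2 had 76.3, 71.1 and 72.0 in WT and 278, 273 and 250.2 in Setd5+/-, a ratio of 3.65 (interval 2.97 to 4.49). In neither gene did the samples of the genotypes overlap. The level of Col4a1 over that of Col4a2 was 1.52 in WT and 2.02 in Setd5+/-.

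Col4a5 and Col4a6, the pair on the X chromosome, went in opposite directions. Col4a5 was the highest collagen of all, with 507, 457 and 566 in WT and 1366, 1349 and 1409 in Setd5+/-, a ratio of 2.69 (interval 2.49 to 2.92). Col4a6 had 53.9, 45.5 and 45.5 in WT and 2.38, 0 and 2.38 in Setd5+/-. The gene was plainly detected in every WT sample and rested on 2 read pairs in the whole Setd5+/- library. It was thus 30.4-fold lower (interval 8.17 to 255), a log2 ratio of -4.93. The level of Col4a5 over that of Col4a6 was 10.6 in WT and 865 in Setd5+/-. On the other side of Col4a6, the autophagy protease gene Atg4a had 17.4 and 14.3 normalized counts, a log2 ratio of -0.28 with an interval (-1.21 to 0.60) that includes 0.

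The pair on chromosome 1, Col4a3 and Col4a4, whose chains combine with Col4a5 in the kidney glomerulus, was low in both libraries. Col4a4 had 7.73 in WT and 13.1 in Setd5+/-, and the interval of its log2 ratio (-0.36 to 1.90) included 0. Col4a3 had 3.87 and 5.96 and was under the minimum.

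**Figure D2:**
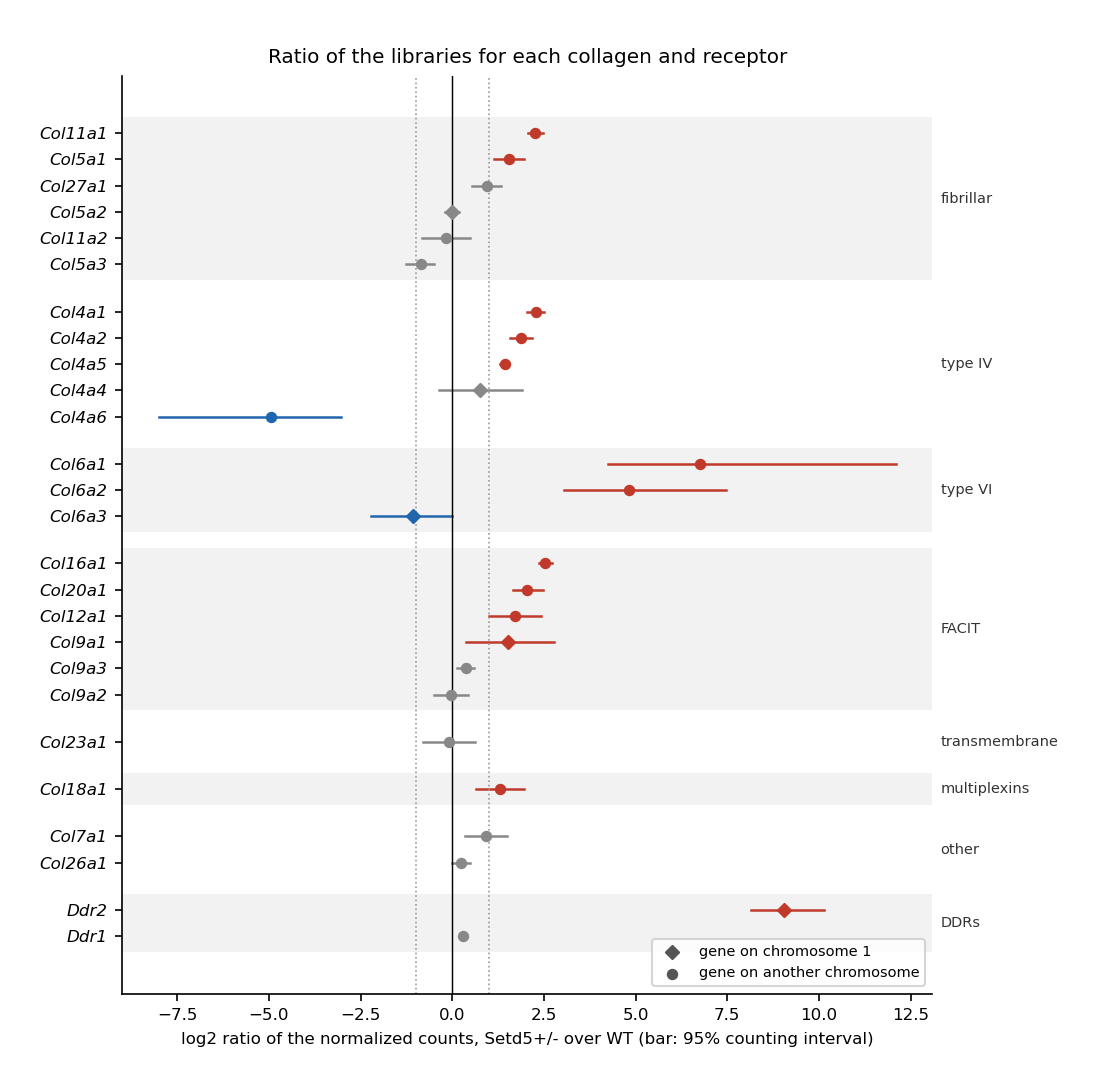
Log2 ratio of the normalized counts, Setd5+/- over WT, for the 26 genes that reached a mean of 10 by class, with bars for the 95% counting interval of 1 library per genotype and dotted lines at 2-fold. Red marks genes at least 2-fold higher (13), blue those at least 2-fold lower (Col4a6 and Col6a3) and grey the other 11; diamonds are genes on chromosome 1.

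The type VI genes Col6a1 and Col6a2, whose chains join the longer Col6a3 chain in the beaded filament, were near 0 in WT and present in Setd5+/-. Levels of Col6a1 were 0, 1.65 and 0 in WT against 57.2, 71.5 and 51.2 in Setd5+/-. With 1 read pair in WT against 75.5, the ratio of 109 had an interval from 18.9 to 4345. The size turns on WT sample 2, which held the only WT pair: without it WT is at 0, and Col6a1 was higher by at least 4.59 on the log2 scale instead of 6.76. Col6a2, 85.2 kb away on chromosome 10, had 1.66, 0.827 and 1.66 in WT and 56.0, 21.4 and 39.3 in Setd5+/-. Its ratio of 28.2 (interval 8.32 to 175) rested on 2.5 and 49 read pairs. The samples of the libraries did not overlap in either gene, but the size of the difference between the libraries is known only to within its wide interval. The nearest protein-coding genes on the outer sides that reached the minimum were Pcbp3 and the sterol synthesis gene Lss. Pcbp3, 35.7 kb from Col6a1, had a log2 ratio of 0.23, and Lss, 38.6 kb from Col6a2, one of -1.37.

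Col6a3, the gene of that longer chain, went the other way. It had 18.2, 16.5 and 17.4 in WT and 9.53, 7.15 and 8.34 in Setd5+/-. The Setd5+/- samples all lay below the WT samples, and the log2 ratio of -1.06 (interval -2.22 to -0.02) stood just past 2-fold, on 31.5 and 10.5 read pairs. The call depends on 1 sample: without Setd5+/- sample 2 the log2 ratio was -0.96. Of the remaining type VI genes, Col6a4 had 2 read pairs in WT and none in Setd5+/-, and Col6a5 and Col6a6 had none.

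Of the 11 fibrillar collagens, 6 reached the minimum, and 2 of these were at least 2-fold higher. Col11a1, which helps to set the diameter of cartilage fibrils, had 140.1, 149 and 128 in WT and 675, 682 and 652 in Setd5+/-, a ratio of 4.82 (interval 4.18 to 5.57). Col5a1, the main chain of the type V collagen that starts fibrils, had 40.6, 49.6 and 33.1 in WT and 148, 111 and 100.1 in Setd5+/-, a ratio of 2.91 (interval 2.19 to 3.89). The samples of the genotypes did not overlap in either gene. The partner chain Col5a2 was nearly equal, with 323 in WT and 322 in Setd5+/- (log2 ratio -0.01, interval -0.19 to 0.18). Col5a3 had 116 and 63.5, a log2 ratio of -0.86 whose interval (-1.25 to -0.49) lay below 0 but which was short of 2-fold. The level of Col27a1 was 53.6 in WT and 103 in Setd5+/-, just short of 2-fold at a ratio of 1.92, and that of Col11a2 was 30.4 and 27.0. The type V and type XI genes therefore did not go one way: within each type 1 gene was at least 2-fold higher while the others were not.

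The collagens that dominate fibroblast matrix were close to absent. Col1a1 had 6.08 in WT and 6.36 in Setd5+/-, Col1a2 had 2.5 read pairs in WT and 0 in Setd5+/-, and Col3a1 had 2 read pairs in WT and 1 in Setd5+/-. A count of 0 in a library allows up to 3 read pairs, which is a level of 1.66 in WT and 2.38 in Setd5+/-, so no ratio is given for Col1a2 or Col3a1. The cartilage collagen Col2a1 had 4 and 2 read pairs.

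Of the 9 FACIT collagens, 6 reached the minimum and 4 of these were at least 2-fold higher. Col16a1, which associates with fibrils and basement membranes, was the highest of the class. It had 185, 184 and 171 in WT and 1055, 1016 and 1064 in Setd5+/-, a ratio of 5.80 (interval 5.13 to 6.56). The nearest protein-coding genes that reached the minimum, Adgrb2 (25.2 kb away) and Pef1 (3.3 kb away), had log2 ratios of 0.27 and 0.22. Col20a1 had 48.9, 37.2 and 31.5 in WT and 154, 166 and 168 in Setd5+/-, a ratio of 4.14 (interval 3.15 to 5.51). Its exons share 79 bases with a second gene on the same strand, BX649560.1, which had 94.7 and 176 normalized counts, and the next gene, the nicotinic receptor subunit Chrna4, lies 0.017 kb away and had 206 and 494. Reads at these borders can be given to either gene.

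Col12a1, a collagen of tendon and other dense tissue, had 12.4, 16.5 and 13.3 in WT and 54.8, 41.7 and 40.5 in Setd5+/-, a ratio of 3.24 (interval 2.00 to 5.39). The samples of the genotypes were apart here, but not in Col9a1, a chain of type IX collagen. Col9a1 had 4.98, 4.14 and 7.45 in WT and 31.0, 9.53 and 7.15 in Setd5+/-. The ratio of 2.88 (interval 1.29 to 6.88) came mainly from Setd5+/- sample 1, and without that sample the log2 ratio dropped from 1.52 to 0.59. The partner chains stayed within 2-fold, with 53.8 and 52.8 normalized counts for Col9a2 and 166 and 214 for Col9a3.

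Among the other classes, the multiplexin Col18a1, a basement membrane collagen whose end fragment is endostatin, had 14.1, 23.2 and 17.4 in WT and 28.6, 54.8 and 51.2 in Setd5+/-. All Setd5+/- samples lay above the WT samples, and the ratio was 2.46 (interval 1.58 to 3.91). The highest transmembrane collagen, Col23a1, overlapped between the genotypes, with 24.0, 23.2 and 25.7 in WT and 31.0, 17.9 and 20.3 in Setd5+/- (log2 ratio -0.08, interval -0.81 to 0.63). Col26a1 had 158, 171 and 171 in WT and 191, 196 and 204 in Setd5+/-. Its samples did not overlap, but the interval of its log2 ratio (-0.01 to 0.48) included 0. Col7a1, the anchoring fibril collagen of skin, had 25.9 and 48.8, a ratio of 1.88 (interval 1.27 to 2.81). The short-chain network collagens were all but silent, with 2 read pairs of Col8a2 in WT as their only reads.

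The 16 genes with reads under the minimum were Col1a1, Col1a2, Col2a1, Col3a1, Col24a1, Col4a3, Col6a4, Col8a2, Col14a1, Col19a1, Col22a1, Col13a1, Col17a1, Col25a1, Col15a1 and Col28a1. The highest of them was Col28a1, with 7.18 in WT and 8.34 in Setd5+/-. The lowest genes that passed were Col4a4 and Col9a1, with means of 10.4 and 10.7 over the 6 samples.

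**Figure D3:**
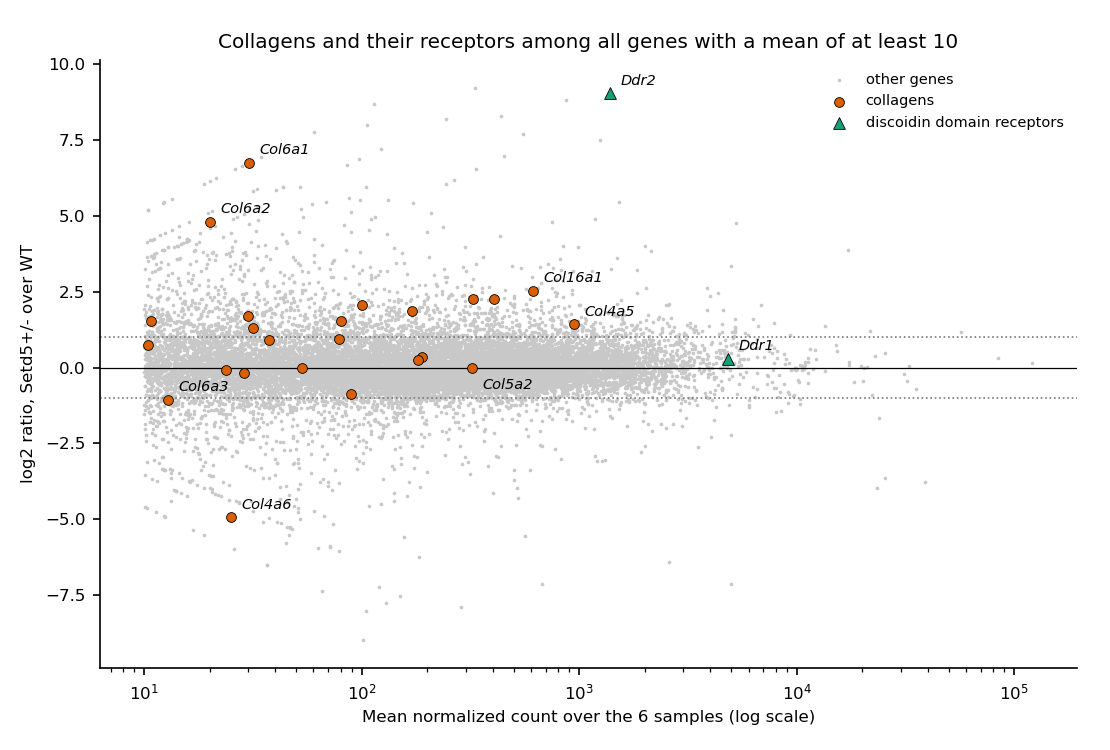
Log2 ratio (Setd5+/- over WT, vertical axis) against the mean normalized count over the 6 samples (log scale) for the 16266 genes whose mean reached 10, with collagens as orange circles and the receptors as green triangles; a gene with no read in 1 library is drawn at the ratio that 3 read pairs there would give. Ddr2 stands at 9.05, near the upper edge, while Ddr1 lies close to 0 at a higher mean.

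Per kilobase of exon, the order of the collagens differed between the libraries. In WT the highest levels were those of Col4a5 (75.9 normalized counts per kilobase), Col9a3 (43.1) and Col5a2 (33.7). In Setd5+/- they were those of Col4a5 (205), Col16a1 (155) and Col4a1 (72.3). The share of Col4a5 in the summed level of all collagens per kilobase was 24.0% in WT and 26.6% in Setd5+/-, while the share of Col16a1 was 8.43% and 20.1% and that of Col4a1 4.71% and 9.41%. Col5a2 held 10.6% in WT and 4.36% in Setd5+/- at an almost equal level.

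**Figure D4:**
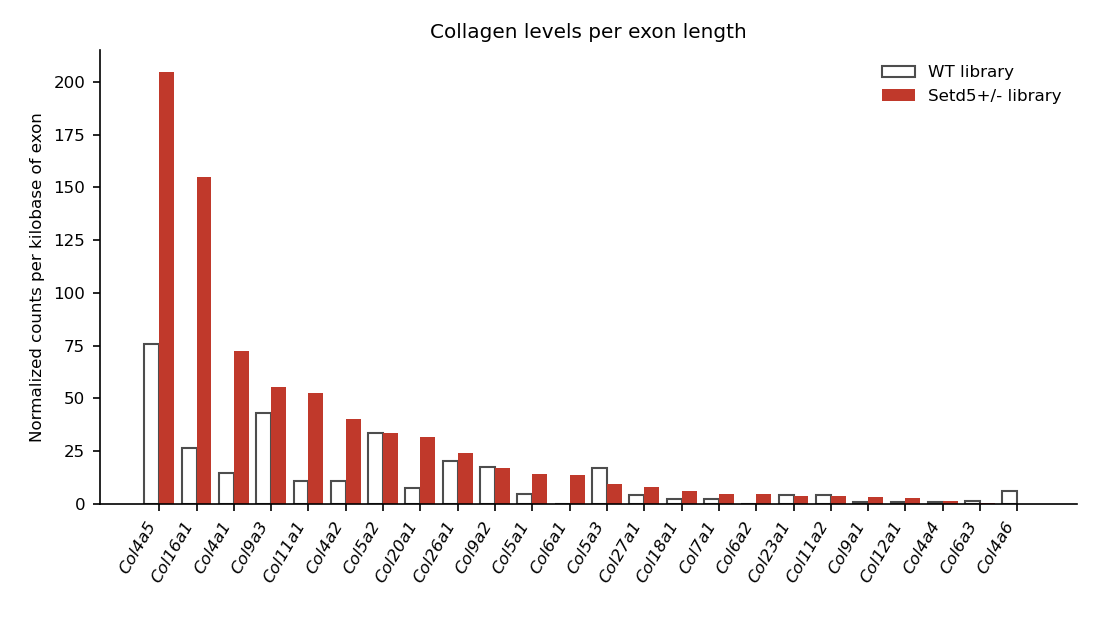
Normalized counts per kilobase of exon for the 24 collagens with a mean of at least 10 in the WT library (open bars) and the Setd5+/- library (red bars), ordered by the level in Setd5+/-. Col4a5 is highest in both, Col16a1 stands at 26.7 and 155, and Col5a2 stands at 33.7 and 33.5.

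The genes that make, process or bind collagen were counted in 8 lists with 64 genes, all found in the table, Mia2 under its older symbol Ctage5. Of the 42 with a mean of at least 10, 20 were at least 2-fold higher, 1 was lower and 21 were neither, with a median log2 ratio of 0.97. Over all genes with the same minimum, 10.6% were at least 2-fold higher and 6.34% lower, with a median of -0.02. Of the collagen hydroxylases and glycosyltransferases, which modify the chains in the endoplasmic reticulum, 5 of 14 were higher and none lower, with a median of 0.56. They were led by the prolyl 3-hydroxylase P3h2 (19.9 and 80.6 in WT and Setd5+/-), the lysyl hydroxylase Plod2 (252 and 922) and the galactosyltransferase Colgalt2 (190.2 and 577). Prolyl 4-hydroxylase carries out the step that makes the triple helix stable. Of its subunit genes, P4ha3 was at least 2-fold higher (22.1 and 55.2). P4hb (3509 and 4985) and P4ha1 (469 and 567) were not past 2-fold, and P4ha2 was under the minimum.

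Of the chaperone and export genes, 4 of 6 were higher, with a median log2 ratio of 1.22. Serpinh1 (HSP47), the collagen-specific chaperone, had 3091, 2983 and 3163 in WT and 9392, 9510.2 and 9404 in Setd5+/-, a ratio of 3.06. Sparc, a secreted protein that binds collagen, had 901, 856 and 916 in WT and 9103, 9219.6 and 9019 in Setd5+/-, a ratio of 10.2. In both genes the samples of each genotype lay within a narrow range. The folding enzyme Fkbp14 had 186 and 443 normalized counts.

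Outside the cell, 1 of 3 procollagen propeptidase genes was higher (median log2 ratio 0.31): Adamts14, which trims the amino-terminal propeptide, had 26.0 and 235 normalized counts. Of the lysyl oxidases, which crosslink collagen, 1 of the 2 that reached the minimum was higher, namely Loxl2 with 2.21 and 21.4, and Loxl3 (233 and 453) was just short of 2-fold. Lox, below the minimum, went the other way, with 8 read pairs in WT and 0 in Setd5+/-. The median of 2.12 is that of only 2 genes. The only collagenase gene that reached the minimum, the membrane-bound Mmp14, had 629 and 1645, a log2 ratio of 1.39. None of the 4 small leucine-rich proteoglycans reached the minimum, and Lum had no read.

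Of the other collagen receptors, 1 of 6 was at least 2-fold higher, with a median log2 ratio of 0.92. That was the integrin subunit Itga1, with 88.9 and 221 normalized counts. Its partner Itgb1 (4480.1 and 8576) and the endocytic receptor Mrc2 (46.1 and 90.9) were just short of 2-fold, and Adgrg1, an adhesion receptor for type III collagen in the cortex, had 10567 and 10915, a log2 ratio of 0.05. Among the basement membrane partners of type IV collagen, 7 of 10 were higher and 1 was lower, with a median of 1.52. The 3 with the largest log2 ratios were the laminin chains Lama4 (17.1 and 384), Lamc1 (1332 and 7340.4) and Lama1 (9.67 and 43.3). Nid1, a linker of laminin to type IV collagen, was lower (142 and 65.9), while its relative Nid2 was higher, with 81.2 and 168. The lists were chosen with earlier results of these samples known and are not independent evidence of a direction.

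**Figure D5:**
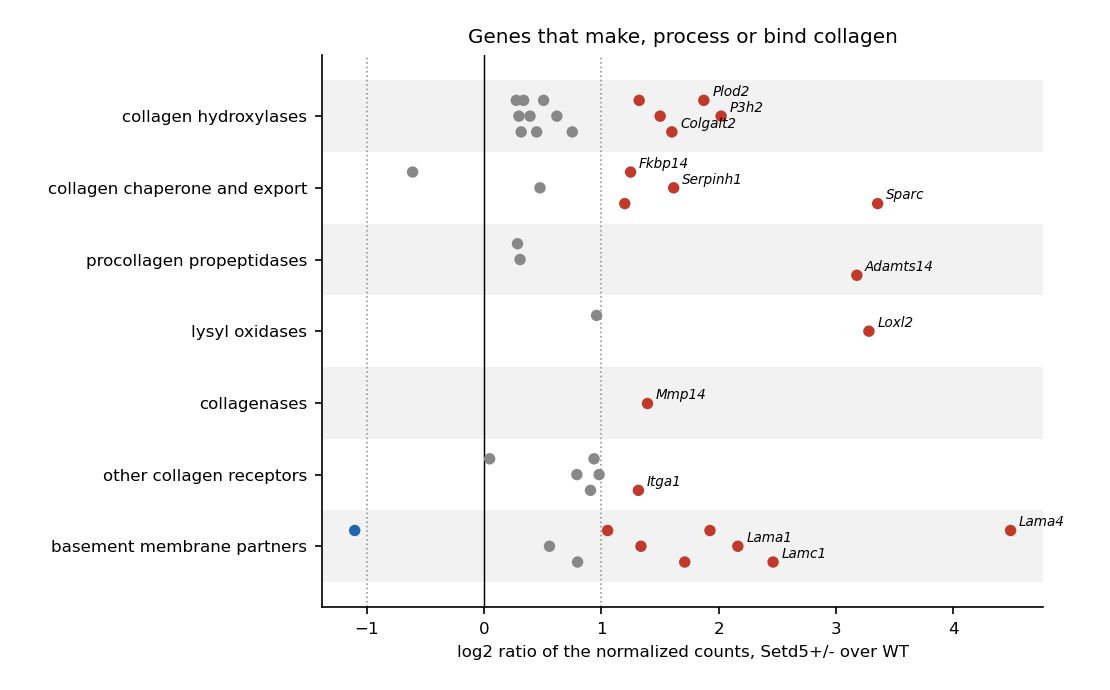
Log2 ratio (Setd5+/- over WT) of the 42 genes whose mean reached 10 in the lists of genes that make, process or bind collagen, 1 point per gene, with the 3 largest at least 2-fold differences of each list named and dotted lines at 2-fold. Red points are at least 2-fold higher (20) and the blue point, Nid1, is lower.

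A total of 8 of the 46 genes lie on chromosome 1, where genes as a whole were higher in the Setd5+/- library (median log2 ratio 0.54 over 1044 genes, against -0.04 over the genes of other chromosomes). Of all chromosome 1 genes 26.1% were at least 2-fold higher and 2.87% lower, against 9.50% and 6.58% of genes on other chromosomes. Of the 5 members of the set there with a mean of at least 10, Ddr2 and Col9a1 were at least 2-fold higher, Col6a3 was lower, and Col5a2 and Col4a4 were neither. On the other chromosomes, 11 of 21 were higher and 1 was lower. Around the 15 genes that were at least 2-fold different, the nearest protein-coding gene on each side that reached the minimum was taken, however far away. That gave 24 genes that are neither collagens nor receptors. Of these, 5 were at least 2-fold higher, 1 was lower and 18 were neither, with a median log2 ratio of 0.23. Of the 5, Cd109 (log2 ratio 3.83) lies 883 kb from Col12a1. Olfm1 (1.93) and Rxra (139 in WT and 320.1 in Setd5+/-) lie 153 and 123 kb from Col5a1. Chrna4 (1.26) lies 0.017 kb from Col20a1. Lmbrd1 (1.05) lies 426 kb from Col9a1, with Col19a1, which was under the minimum, between them. The lower one was Lss, 38.6 kb from Col6a2. The part of chromosome 1 in the differences of its members was not tested.

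Markers of cell types were read beside these values, since a change in which cells a culture holds and a change of expression per cell cannot be told apart in bulk RNA. Neural stem cell markers were present in both libraries, with summed levels of 73089 to 73323 normalized counts in the WT samples and 52909 to 53550.5 in Setd5+/-. Of the 8, none was at least 2-fold higher and 2 were lower, where over all genes 10.6% were higher and 6.34% lower. The highest, Fabp7, had 36015 and 11489.8, a log2 ratio of -1.65, and Prom1, which had 24.6 and 2.38, was lower too. Nes (2378 and 1951) and Sox2 (3119 and 2732) had log2 ratios of -0.29 and -0.19, Slc1a3 (20983 and 21117) one of 0.01, and Pax6, Hes5 and Vim ratios of 0.40, 0.43 and 0.60. Oligodendrocyte lineage markers summed to 39608 to 40432 in WT and 21528 to 22275 in Setd5+/-. Here 2 of 5 were lower, and the highest, Olig1, had 28867 and 15491. Astrocyte markers summed to 799 to 818 and 1239 to 1402, with 3 of 4 higher and 1 lower. The higher ones were S100b (339 and 737), which had the highest mean over the 6 samples, Gfap (17.1 and 263) and Aqp4 (57.7 and 187). Aldh1l1 was lower (380 and 147). Neuron markers summed to 10244 to 10609 and 12476 to 12594, and nearly all of that sum was Map2 (9983 and 12445). Of the 5 that reached the minimum, 3 were at least 2-fold lower, with a median log2 ratio of -1.78. These were Dcx (248 and 26.2), Syt1 (64.9 and 5.16) and Snap25 (19.1 and 5.56).

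Markers of fibroblasts and mesenchymal cells, which are known for making many of these collagens and Ddr2, summed to 1270.4 to 1349 in WT and 2676 to 2813 in Setd5+/-. Of the 4 with a mean of at least 10, 1 was at least 2-fold higher, namely Thy1 (243 and 1333). Prrx1 (382 and 627) and Pdgfra (596 and 710.0) were higher by less than 2-fold, with intervals above 0, and Foxc1 (100.2 and 53.2) was lower by less than 2-fold. The other 6, Pdgfrb, Dcn, Lum, Twist1, Twist2 and Tbx18, had at most 1 read pair in WT and none in Setd5+/-. The part of such cells in the collagen values was not tested. Endothelial markers summed to 9.11 to 16.5 in WT and 13.1 to 26.2 in Setd5+/-, with Kdr (6.35 and 17.9) the only one to reach the minimum, and Cdh5, Cldn5 and Emcn at 0 in Setd5+/-. Pericyte and smooth muscle markers summed to 30.6 to 48.8 and 28.6 to 33.3, led by Tagln (25.9 and 15.5), with Kcnj8 and Abcc9 at 0 in both libraries. Microglia markers summed to 78.6 to 117 and 48.9 to 70.3, nearly all of it Csf1r (98.0 and 53.6), with Cx3cr1, Ptprc and Itgam at 0 in both libraries.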

How the data were processed

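RNA-seq values of 3 samples labelled WT and 3 labelled Setd5+/-, all from NSCs at 21% oxygen, were analysed. The authors trimmed reads with Trimmomatic, aligned them to mm10 with Bowtie2 and deposited the DESeq2 normalized counts of each gene (reads divided by a size factor per sample), the mean of these 6 normalized counts, and their own log2 fold changes, standard errors, test statistics and p-values. These comparison columns were not used. The counting program and its use of strand are not given in the sources used here. Bowtie2 does not split reads over introns, so reads over the junctions of the many short collagen exons can be lost. The Setd5+/- columns are headed by a clone name, and were matched to the genotype through a supplementary sheet of the paper that heads the same values as heterozygous.

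Many deposited values had lost their decimal point. Each point was set so that the value made a whole count of reads, and the deposited mean settled the place for 1532 of 52438 genes and equalled the restored mean in all of them. A further 672 rows held no values. The variance of reads over their mean was 1.95 within WT and 1.93 within Setd5+/-, as when both reads of a pair are counted, so intervals were computed on read pairs (reads divided by 2). Precision is that of 1 library per genotype, with 7143309 to 10004948 reads per sample.

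Genes whose mean reached 10 normalized counts were compared by the ratio of the libraries, without a pseudocount, and called at 2-fold. A gene with no read in a library was set against 3 read pairs. The procedure was tested on simulated data. Gene positions and exon lengths are from GENCODE M21. Values per sample are given for every collagen or receptor past 2-fold, for Ddr1, and for the highest of each class. Pathway genes are named where past 2-fold, at most the 3 largest of a list, and markers by the highest of a list. P4hb, P4ha1, P4ha2, P4ha3, Itgb1, Mrc2, Adgrg1, Nid1, Nid2, Lox, Loxl3, the further markers named beside the highest, and neighbouring genes were chosen after their values were seen. The genes and lists were chosen with earlier results of these data known. A planned description of protein sequences was not made. Python 3.11.15, numpy 2.4.6, pandas, scipy and matplotlib were used.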

Additional observations from a re-analysis of the deposited data

How the results depend on the processing

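The counts of 13 genes at least 2-fold higher and 2 lower, and the median log2 ratio of 1.12, came out alike when levels were scaled to the reads counted on genes, to the upper quartile, or by size factors from genes outside chromosome 1 (13 and 2 each time, median 1.08 to 1.15), and the counts stayed at 13 and 2 when the interval also had to leave out 1. With 1 added to each level, 1 gene was lower, since Col6a3 came to -0.98. With a minimum mean of 50, 8 genes were higher and 0 lower, with a median of 1.43, since fewer genes are tested. Over all genes with that minimum, 8.31% were higher and 4.74% lower. With every gene above 3 read pairs in a library, 14 were higher and 3 lower, with a median of 0.84 (13.7% and 9.34% of all genes). At a cut of 1.5-fold, 16 were higher and 3 lower (19.9% and 15.8% of all genes). Leaving out 1 sample at a time gave 13 to 15 genes higher, 1 to 3 lower and a median of 1.08 to 1.21. The lowest count of genes lower, 1, came without Setd5+/- sample 2, through Col6a3 (-0.96). For the 16 genes named for their difference or as receptors, all 160 log2 ratios under 10 alternatives kept their direction and 157 kept their side of 2-fold. The exceptions were both Col6a3 values above and Col9a1 without Setd5+/- sample 1 (0.59). Sizes moved by over 1.5 times in Col9a1 and 3 more genes: with 1 added, Col6a1 came to 5.30, Col6a2 to 4.07 and Col4a6 to -4.25, and without WT sample 2 Col6a1 came to 4.59, a bound.

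No paired analysis was possible because each genotype is 1 library and no result comes from a test, and the planned limma fit was not run for the same reason. Depth limits Col6a1, Col6a2 and Col4a6 most, each with at most 2.5 read pairs in 1 library.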
